A study of Mus musculus with 2 samples.

Results

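Aminoacyl-tRNA synthetases are the enzymes that join each amino acid to its transfer RNA, the step that fixes the meaning of the genetic code. Mammalian cells encode a cytosolic set, which serves the ribosomes that translate nuclear messages, and a mitochondrial set, which is encoded in the nucleus, imported, and serves the organelle's own ribosomes. The exocrine pancreas is known for a very high output of secreted protein, and acinar cells carry a dense rough endoplasmic reticulum. The 36 genes described here were taken by their symbols from the 43346 annotated gene rows of the deposited tables. All 36 had a row in both libraries. They comprise 20 cytosolic genes and 16 mitochondrial genes, recognised by a name that ends in 2, and Lars2 is described apart from the other 15.

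The RNA came from the pancreas of 1 female C57BL/6J mouse, an adult of 10 weeks with no treatment or engineered allele named in the labels. It was measured by polyA RNA-seq in 2 technical replicate libraries of 1 biological sample. Replicate 2 was made in May 2015, and the labels give replicate 1 no date of its own. The deposited tables held 9797569 expected counts in replicate 2 and 9441559 in replicate 1. There is 1 group and no condition to compare, so the tests below compare these libraries, not conditions, and hold counting error only. Every SD is over these 2 technical libraries. PCR copies are not independent molecules, and the intervals cover only the error of counting. The tissue label was checked against fixed marker genes. The 5 acinar markers summed to 49690 TPM in replicate 2 and 40950 TPM in replicate 1, the 5 islet markers to 22700 TPM in replicate 2 against 20990 TPM in replicate 1, and no marker of any of the 11 lists was at 0 in both libraries. Some lists differed between the libraries. The 2 erythroid markers summed to 2145 TPM in replicate 2 against 930.9 TPM in replicate 1 and both were called higher, the fibroblast markers summed to 238.1 TPM in replicate 2 against 466.9 TPM in replicate 1 with none called, and 1 acinar marker was called higher and 1 islet and 1 B and plasma cell marker lower. Of all genes tested, 8.31% were called higher in replicate 2 and 4% lower, by the test described further on. The part of these lists in the library differences was not tested. TPM is a transcript level corrected for length and scaled to a common total, and in bulk tissue a low level can mean fewer cells of a type or less RNA per cell, which cannot be told apart.

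With Lars2 left out, cytosolic synthetase messages were by class median far more abundant than mitochondrial ones in this pancreas. All 20 cytosolic genes reached 1 TPM in both libraries. Their levels ran from 4.40 to 28.37 TPM in replicate 2 and from 5.12 to 26.10 TPM in replicate 1, with medians of 9.96 TPM in replicate 2 against 10.09 TPM in replicate 1 (mean 10.02 ± 0.0955 TPM, SD, n = 2 technical libraries). The 15 mitochondrial genes ran from 0.26 to 7.84 TPM in replicate 2 and from 0.48 to 8.02 TPM in replicate 1, with medians of 1.71 TPM in replicate 2 against 1.50 TPM in replicate 1 (mean 1.61 ± 0.149 TPM, SD, n = 2). At 1 TPM or more were 12 of the 15 in replicate 2 and 10 in replicate 1, and 10 in both. The cytosolic median exceeded the mitochondrial median 5.82 times in replicate 2 and 6.73 times in replicate 1 (mean 6.27 ± 0.640, SD, n = 2). Genes are not replicates, and the class difference carries no test. Among all 12452 genes with a mean of 10 counts or more, the median level was 3.24 TPM in replicate 2 and 3.85 TPM in replicate 1. The cytosolic median stood at percentile 82.0 of those genes in replicate 2 and 78.8 in replicate 1, and the mitochondrial median at percentile 28.2 in replicate 2 and 20.4 in replicate 1.

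**Figure D1:**
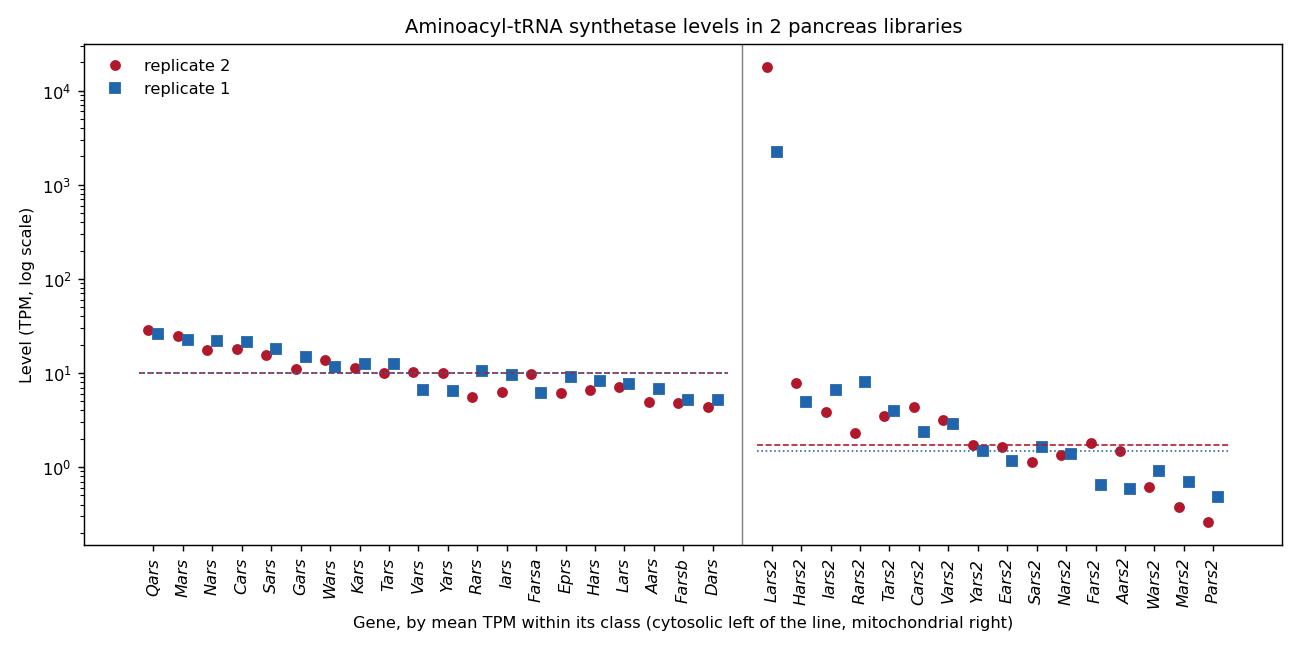
Level of each synthetase gene in TPM (log axis) in replicate 2 (circles) and replicate 1 (squares), cytosolic genes left of the line and mitochondrial genes right, ordered by mean TPM. Horizontal lines mark the class medians, dashed for replicate 2 and dotted for replicate 1, at 9.96 TPM in replicate 2 against 10.09 TPM in replicate 1 for the cytosolic class (where they lie on each other) and 1.71 TPM in replicate 2 and 1.50 TPM in replicate 1 for the mitochondrial class without Lars2. Lars2 stands above every other synthetase gene.

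The glutamine enzyme Qars and the methionine enzyme Mars had the highest gene totals of TPM in the cytosolic class. Qars had 28.37 TPM in replicate 2 and 26.10 TPM in replicate 1, from 184 expected counts in replicate 2 and 213 expected counts in replicate 1. Glutamine has no mitochondrial synthetase of its own in mammals, and the organelle makes glutaminyl-tRNA by another route. Qars was also the only member whose expected count carried a deposited posterior SD above 0, at 4.35 counts in replicate 2 and 7.09 in replicate 1. A transcript that the files give to Qars belongs to Qrich1 in GENCODE M21, and without it, an alternative chosen after seeing the data, Qars had 24.10 TPM in replicate 2 and 22.72 TPM in replicate 1. Mars, which charges the initiator transfer RNA as well as the elongator, had 24.80 TPM in replicate 2 and 22.66 TPM in replicate 1. The asparagine enzyme Nars had 17.73 TPM in replicate 2 and 22.02 TPM in replicate 1, and it held the most counts of the class, 331 in replicate 2 and 475 in replicate 1. The cysteine enzyme Cars followed with 17.97 TPM in replicate 2 and 21.20 TPM in replicate 1. The mean of Qars without the Qrich1 transcript, 23.41 TPM, was below the 23.73 TPM of Mars. Qars, Mars, Nars and Cars were the 4 highest by mean TPM, and none of them was called as different between the libraries. The order rests partly on isoform estimates. Transcripts annotated as protein-coding took only 10% of the Qars TPM in replicate 2 and 19% in replicate 1. A transcript absent from GENCODE M21 took 11.9% in replicate 2 and 18.3% in replicate 1. The Qars level is therefore a gene total and not a level of coding messages. The deposited effective length was 863 bases in replicate 2 and 932 bases in replicate 1 for Qars and 1263 in replicate 2 and 1015 in replicate 1 for Mars, against 2479 in replicate 2 and 2469 in replicate 1 for Nars, so that fewer counts gave a higher TPM for Qars and Mars.

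At the low end of the class lay Dars, Farsb and Aars. The aspartate enzyme Dars had 4.40 TPM in replicate 2 and 5.12 TPM in replicate 1. Farsb, the beta subunit of the phenylalanine enzyme, had 4.78 TPM in replicate 2 and 5.17 TPM in replicate 1. The alanine enzyme Aars had 4.97 TPM in replicate 2 and 6.75 TPM in replicate 1. Phenylalanine is the only amino acid here whose cytosolic enzyme is built from the products of 2 genes, in equal number. The alpha subunit gene Farsa had 9.74 TPM in replicate 2 and 6.20 TPM in replicate 1, so the ratio of the alpha to the beta message was 2.04 in replicate 2 and 1.20 in replicate 1. Farsa had 110 counts in replicate 2 and 78 in replicate 1, and Farsb 63 in replicate 2 and 74 in replicate 1. All of the Farsa TPM was assigned to retained-intron or nonsense-mediated-decay transcripts, with 0% on a coding one in either library, while 64.8% of the Farsb TPM in replicate 2 and 71.0% in replicate 1 was on coding transcripts, so the ratio is one of gene totals and not of coding messages.

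A group of 8 cytosolic synthetases (Dars, Eprs, Iars, Kars, Lars, Mars, Qars and Rars) is known to assemble into the multi-tRNA synthetase complex. The median of these 8 was 6.71 TPM in replicate 2 against 10.09 TPM in replicate 1, with a range of 4.40 to 28.37 TPM in replicate 2 and 5.12 to 26.10 TPM in replicate 1. The other 12 cytosolic genes had medians of 10.11 TPM in replicate 2 against 9.97 TPM in replicate 1. The order of the group medians in deposited TPM therefore differed between the libraries. That order depends on effective lengths, which for Rars were 1956 bases in replicate 2 and 1604 in replicate 1. With 1 effective length per gene in both libraries, an alternative chosen after seeing the data, the complex median was the lower in both. The margin in replicate 1 was small, so no difference of level between complex and free enzymes is given. Eprs, a bifunctional protein that charges glutamate and proline, had 6.17 TPM in replicate 2 and 9.01 TPM in replicate 1. By the catalytic fold, the 9 class I enzymes among the cytosolic genes had medians of 10.24 TPM in replicate 2 against 10.56 TPM in replicate 1 and the 10 class II enzymes 9.84 TPM in replicate 2 against 10.27 TPM in replicate 1, with the bifunctional Eprs set aside.

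Some cytosolic synthetase genes are known targets of ATF4, the transcription factor of the amino acid response, which binds a composite C/EBP-ATF element. The promoter windows of RefSeq (build GRCm38.p6, 250 bases before to 50 after each gene start) were searched for the core of that element, TGATGCAA, on both strands. A window was found for 27 of the 36 members, 13 cytosolic and 14 mitochondrial. Cars, Hars, Hars2, Lars, Nars, Pars2, Rars, Vars and Wars were not matched. Over all genes, 294 of 32851 windows (0.895%) held the core, which is a share of windows and not of genes. Among the members, it was present in a window of 4 of the 13 cytosolic genes and of 0 of the 14 mitochondrial genes. Of these matches 3 are given here 5′ to 3′ on the strand of the gene, with the core or its reverse complement in capitals, to show where the letters lie.
Iars (chr13:49682127-49682154, plus strand): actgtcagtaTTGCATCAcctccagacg
Tars (chr15:11399656-11399683, minus strand): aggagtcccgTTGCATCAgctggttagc
Yars (chr4:129189896-129189923, plus strand): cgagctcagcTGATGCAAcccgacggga

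In Tars the core began 15 bases before the RefSeq start. In Iars and Yars it lay after the start, at offsets of 7 and 3 bases. By GENCODE M21 on the same assembly, the Iars match falls in untranslated exon sequence of annotated transcripts of the gene, and the Tars match lies just outside the annotated gene. In Yars the core occupies positions 129189906 to 129189913 of chromosome 4, and the annotated coding sequence starts at 129189908, so the core spans the annotated start codon. A match describes letters in a window and is not a measured binding site.

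Among the mitochondrial genes, the histidine enzyme Hars2 was the most abundant after Lars2 by mean TPM, with 7.84 TPM in replicate 2 and 4.95 TPM in replicate 1. The isoleucine enzyme Iars2 had 3.81 TPM in replicate 2 and 6.64 TPM in replicate 1, and its 129 counts in replicate 2 and 171 in replicate 1 were the most of the 15. The arginine enzyme Rars2 had 2.32 TPM in replicate 2 and 8.02 TPM in replicate 1. The threonine enzyme Tars2 had 3.46 TPM in replicate 2 and 3.93 TPM in replicate 1. Few mitochondrial genes reached the level of the least abundant cytosolic gene, 1 of the 15 in replicate 2 and 2 of the 15 in replicate 1.

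The gap in Rars2 came with a different effective length, not with many more reads. Its counts were 30 in replicate 2 and 49 in replicate 1. The deposited effective length of the gene, which depends on the isoforms that received the reads, was 1715 bases in replicate 2 and 699 bases in replicate 1. On counts the log2 ratio of replicate 2 over replicate 1 was -0.22 (95% interval -0.93 to 0.46), and it was not called.

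The lowest levels were those of Pars2, Mars2 and Wars2. The proline enzyme Pars2 had 0.26 TPM in replicate 2 and 0.48 TPM in replicate 1, from 4 counts in replicate 2 and 12 counts in replicate 1, and it was the only one of the 36 genes with too few counts to test. The methionine enzyme Mars2 had 0.38 TPM in replicate 2 and 0.69 TPM in replicate 1, from 32 counts in replicate 2 and 67 counts in replicate 1 spread over a long transcript of 11294 bases. The tryptophan enzyme Wars2 had 0.61 TPM in replicate 2 and 0.92 TPM in replicate 1. All 3 were under 1 TPM in both libraries.

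For each amino acid with a gene in each class, the cytosolic level was divided by the mitochondrial level within a library, which removes the depth of the library. Phenylalanine gave 2 pairs and Eprs was set against Ears2 and Pars2, so that 16 pairs were formed without Lars2. The cytosolic gene was higher in both libraries in 15 of the 16 pairs, and in 14 pairs the 95% interval of the ratio lay above 1 in both. The median ratio was 3.97 in replicate 2 and 8.49 in replicate 1. Pairs share genes and are not replicates of each other, so these counts are a description. The ratio was larger in replicate 1 for 8 of the 16.

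**Figure D2:**
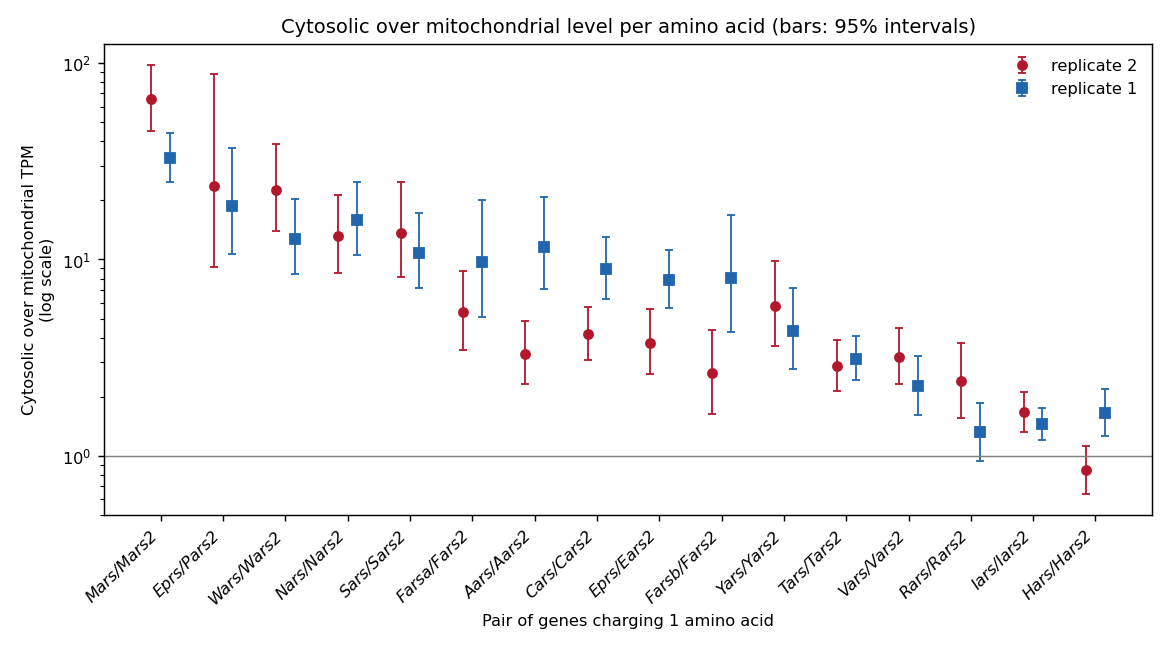
Cytosolic over mitochondrial TPM for 16 pairs of genes (log axis) in replicate 2 (circles) and replicate 1 (squares), ordered by the mean ratio. Bars are 95% Clopper-Pearson intervals of the counts, scaled by effective length. Of the pairs, 15 lie above 1 in both libraries, and Hars over Hars2 lies below 1 in replicate 2.

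The widest ratio of gene totals was that of methionine. Mars exceeded Mars2 by a ratio of 65.3 in replicate 2 (95% interval 44.8 to 97.3) and 32.8 in replicate 1 (24.8 to 44.0). These intervals did not overlap, but they do not cover the isoform assignment. A Mars transcript of 621 bases took 15.62 TPM in replicate 2 and 11.91 TPM in replicate 1. The Mars transcript of 2939 bases took 3.31 TPM in replicate 2 and 1.3 TPM in replicate 1. Mars had 236 counts in replicate 2 and 201 in replicate 1. Mars2 had 32 counts in replicate 2 and 67 in replicate 1, over 11294 bases. The part of this assignment in the ratio was not tested. Proline came second, with Eprs over Pars2 at 23.7 in replicate 2 (9.12 to 87.7) and 18.8 in replicate 1 (10.7 to 36.9). At the other end, isoleucine was nearly balanced, with Iars over Iars2 at 1.67 in replicate 2 (1.32 to 2.12) and 1.45 in replicate 1 (1.20 to 1.76). The ratio of Rars to Rars2 was 2.40 in replicate 2 (1.56 to 3.77) and 1.32 in replicate 1 (0.947 to 1.86). With 1 effective length per gene in both libraries, an alternative chosen after seeing the data, it was 1.85 in replicate 2 and 2.05 in replicate 1, and Iars over Iars2 was 1.33 in replicate 2 and 1.90 in replicate 1, so the order of the libraries turned in both. Histidine was the only amino acid for which the higher of the cytosolic and mitochondrial genes differed between the libraries. Hars had 6.66 TPM in replicate 2 and 8.22 TPM in replicate 1, and the ratio of Hars to Hars2 was 0.850 in replicate 2 (0.640 to 1.13) and 1.66 in replicate 1 (1.26 to 2.20).

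Hars and Hars2 are annotated head to head on opposite strands and share 198 bases. The sources used here do not say whether counting used strand, and reads in a shared stretch cannot then be assigned with certainty. Of the 36 members, 10 overlap a protein-coding gene on the other strand, and none overlaps one on the same strand. The overlap was 2315 bases for Farsb and Sgpp2, 2034 bases for Iars2 and Rab3gap2, 984 bases for Cars2 and Naxd, 920 bases for Fars2 and Nrn1, and 68 bases for Mars and Ddit3. Sgpp2 had 38 counts in replicate 2 and 71 in replicate 1, Naxd 154 in replicate 2 and 135 in replicate 1, and Nrn1 7 in replicate 2 and 12 in replicate 1. The part of these overlaps in the members' values was not tested.

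Glycine and lysine have no gene in the mitochondrial class because Gars and Kars are known to supply both compartments, Gars by alternative translation starts and Kars by alternative splicing. Gars had 11.10 TPM in replicate 2 and 14.90 TPM in replicate 1 from 1 annotated transcript, which cannot divide the forms. Kars had 11.38 TPM in replicate 2 and 12.47 TPM in replicate 1. The libraries divided the reads differently between its 2 transcripts that held any, both protein-coding. The transcript with a coding sequence of 1785 bases took 100% of the gene's TPM in replicate 2 and 31.4% in replicate 1. The transcript with the longer coding sequence of 1872 bases took 0% in replicate 2 and 68.6% in replicate 1, from 0 estimated counts in replicate 2 and 149 estimated counts in replicate 1. The gene totals were 159 counts in replicate 2 and 212 in replicate 1, and their log2 ratio was 0.07 (95% interval -0.24 to 0.37).

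Isoform assignment differed between the libraries across the family. In the files, 10 members had 1 transcript and 26 had more. Of these 26, 15 had the same main isoform in both libraries by TPM, and 11 had a main share that differed by more than 20 percentage points. Pars2 was assigned wholly to a transcript of 2191 bases in replicate 2 and wholly to one of 3046 bases in replicate 1, on 4 counts in replicate 2 and 12 counts in replicate 1. For Rars2, the protein-coding transcript of 1868 bases took 100% in replicate 2 and 0% in replicate 1. In replicate 1 the reads went to 4 other transcripts, led by those of 526 bases with 35.7% and 1843 bases with 30.4% of the TPM. Both are annotated as processed transcripts without a coding sequence. Lars2 had 1 transcript in the files. No isoform difference was tested, since the files give estimates for 1 library on each side.

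Levels of the members followed a similar order in the libraries. Across the 35 genes without Lars2, log2(TPM + 1) correlated at Pearson's r = 0.93 and TPM at Spearman's rho = 0.89, a description across genes that share libraries. Differences between the libraries were tested on expected counts scaled by TMM, gene by gene over all 12452 testable genes, with an exact binomial test. A call needed a Benjamini-Hochberg adjusted p under 0.05 together with a log2 ratio no smaller in size than 1. Of the cytosolic genes 1 of 20 was called higher in replicate 2 and of the mitochondrial genes 3 of 14, where 8.31% of all genes tested were. None of these 34 was called lower, where 4% of all genes were, and 12.3% of all genes were called in either direction. With so few members called, the cytosolic share lay below the background and the mitochondrial share above it, on only 1 and 3 genes. The median log2 ratio was 0.11 for the cytosolic and 0.27 for the mitochondrial genes, against -0.01 for all genes tested. Scaling by library totals shifted all ratios by -0.54 and turned the class medians to -0.43 and -0.27, so no direction of either class relative to total RNA is given.

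The called cytosolic gene was Vars, the valine enzyme (chromosome 17, 35000987 to 35016322). It had 219 counts in replicate 2 and 117 in replicate 1, and its level was 10.24 TPM in replicate 2 and 6.59 TPM in replicate 1. Coding transcripts took 36% of that TPM in replicate 2 and 27.6% in replicate 1, and retained-intron transcripts the rest, so these are gene totals. The log2 ratio of Vars was 1.38 (95% interval 1.06 to 1.72), with an adjusted p of 2.51e-16 in the exact binomial test. Next came Farsa at 0.98 (0.55 to 1.42) and the tyrosine enzyme Yars at 0.81 (0.45 to 1.18), both under the size threshold. The lowest ratios of the class were -0.43 for Iars (-0.71 to -0.16), -0.37 for the arginine enzyme Rars (-0.78 to 0.03) and -0.27 for Eprs (-0.52 to -0.03). Rars had 5.57 TPM in replicate 2 and 10.56 TPM in replicate 1, on 82 counts in replicate 2 and 148 counts in replicate 1.

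The called mitochondrial genes charge alanine, phenylalanine and cysteine. Aars2 (chromosome 17, 45506841 to 45520843) had 36 counts in replicate 2 and 16 in replicate 1, with a log2 ratio of 1.63 (0.77 to 2.60, adjusted p = 5.97e-04, exact binomial test). Fars2 (chromosome 13, 36117412 to 36726280) had 25 counts in replicate 2 and 11 counts in replicate 1 and a log2 ratio of 1.63 (0.59 to 2.84, adjusted p = 4.62e-03, exact binomial test). Cars2 (chromosome 8, 11513977 to 11550783) had 55 counts in replicate 2 and 35 counts in replicate 1 and a log2 ratio of 1.13 (0.50 to 1.79, adjusted p = 1.31e-03, exact binomial test). Their levels were 1.50 TPM in replicate 2 and 0.58 TPM in replicate 1 for Aars2, 1.81 TPM in replicate 2 and 0.64 TPM in replicate 1 for Fars2, and 4.31 TPM in replicate 2 and 2.38 TPM in replicate 1 for Cars2. The lowest mitochondrial ratios were -0.57 for Mars2 (-1.24 to 0.04), -0.24 for the serine enzyme Sars2 (-1.28 to 0.73) and -0.22 for Rars2.

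**Figure D3:**
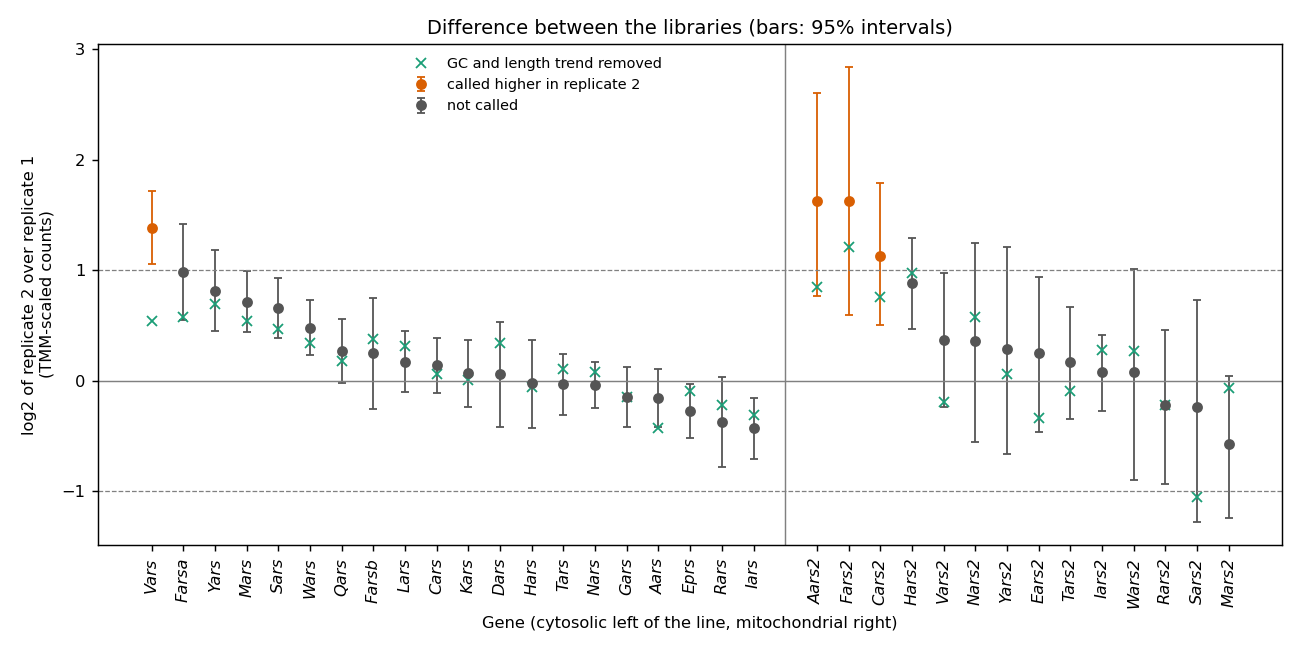
Log2 ratio of replicate 2 over replicate 1 for the 34 tested members without Lars2, from TMM-scaled counts, with 95% intervals; crosses give the ratio after a GC and length trend over all genes was removed. Vars, Aars2, Fars2 and Cars2 (orange) were called, and of these crosses only that of Fars2, at 1.21, stays above 1.

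The called genes were GC-rich, as were several members that were not called. Their main transcripts held 60.9% GC for Vars, 60.0% for Aars2, 56.6% for Fars2 and 55.8% for Cars2, where the median of all genes tested was 50.2%. Of the uncalled members, Sars2 held 60.1% GC at a log2 ratio of -0.24, Vars2 58.2% at 0.37 and Ears2 58.1% at 0.25. The class medians were 50.3% for the cytosolic and 53.8% for the mitochondrial genes. Across the 34 tested members, the log2 ratio and the GC content correlated at Pearson's r = 0.58 and Spearman's rho = 0.51, and across all genes at rho = 0.46, again as a description across genes. When a smooth trend on GC content and transcript length was removed, the log2 ratios were 0.54 for Vars, 0.85 for Aars2, 1.21 for Fars2 (adjusted p = 0.0636, exact binomial test) and 0.76 for Cars2, and no member was called. With library totals, Vars stood at 0.85, Cars2 at 0.59 and Fars2 at 1.10 (adjusted p = 0.0537, exact binomial test), and none of these was called, while Aars2 stood at 1.09 and was.

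**Figure D4:**
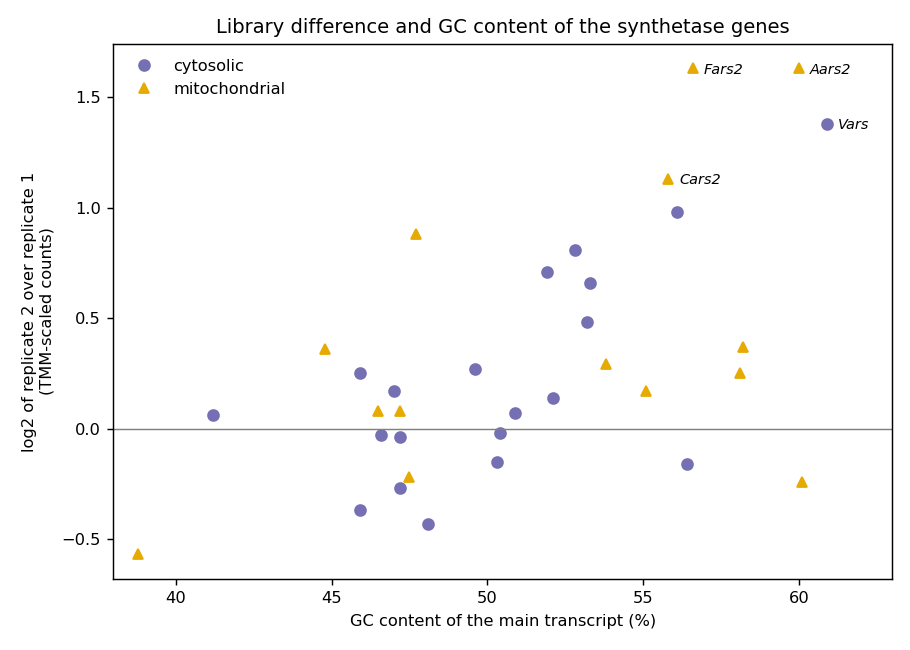
Log2 ratio of replicate 2 over replicate 1 against the GC content of the main transcript for the 34 tested members without Lars2, cytosolic as circles and mitochondrial as triangles. The 4 called genes, named in the plot, lie between 55.8% and 60.9% GC.

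Lars2, the mitochondrial leucine enzyme (chromosome 9, 123366927 to 123462666, plus strand), stood apart from every other member. It had 17903 TPM in replicate 2 and 2217 TPM in replicate 1, from 502775 counts in replicate 2 and 72002 counts in replicate 1. That was 5.13% of all counts in replicate 2 and 0.763% in replicate 1, and its rank among all genes by TPM was 11 in replicate 2 and 51 in replicate 1. Its level was 10470 times the median of the other mitochondrial genes in replicate 2 and 1478 times in replicate 1. The cytosolic partner Lars had 7.06 TPM in replicate 2 and 7.56 TPM in replicate 1, so leucine was the only amino acid for which the cytosolic gene was lower in both, at a ratio of 0.000394 in replicate 2 and 0.00341 in replicate 1. The log2 ratio of Lars2 between the libraries was 3.29 (95% interval 3.28 to 3.30), and it was called at an adjusted p that the exact binomial test returned as 0. It was still called with an assumed dispersion of 0.1 in edgeR's exact test (adjusted p = 0.00213), with library totals and with the trend removed.

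Other transcripts of high count moved beside it. The lincRNA Gm42418 had 4193479 counts in replicate 2 and 1597855 in replicate 1, and its log2 ratio was 1.87 (1.87 to 1.88). Its level was 331759 TPM in replicate 2 and 109638 TPM in replicate 1. Since TPM is scaled to a common total, all other genes together held less of that total in replicate 2. Gm26917 had 6865 counts in replicate 2 and 616 counts in replicate 1 and a log2 ratio of 3.96 (3.84 to 4.08). Lars2 counts were 0.120 of those of Gm42418 in replicate 2 and 0.0451 in replicate 1, and 73.2 times those of Gm26917 in replicate 2 and 117 times in replicate 1. With the GC and length trend removed, the log2 ratio was 3.27 for Lars2, 1.04 for Gm42418 and 2.0 for Gm26917. The mitochondrial ribosomal RNAs had fewer counts in replicate 2. For mt-Rnr1 there were 32992 counts in replicate 2 and 113292 in replicate 1, a log2 ratio of -1.30, and for mt-Rnr2 there were 52901 in replicate 2 and 141397 in replicate 1, a log2 ratio of -0.94, under the size threshold. The neighbours of Lars2 on chromosome 9 had far fewer counts. Limd1 had 126 in replicate 2 and 119 in replicate 1, Sacm1l had 90 in replicate 2 and 177 in replicate 1, and neither was called. With library totals, mt-Rnr2 at -1.47 and Sacm1l at -1.03 were called lower. The part of the ribosomal-like transcripts in the Lars2 value was not tested.

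**Figure D5:**
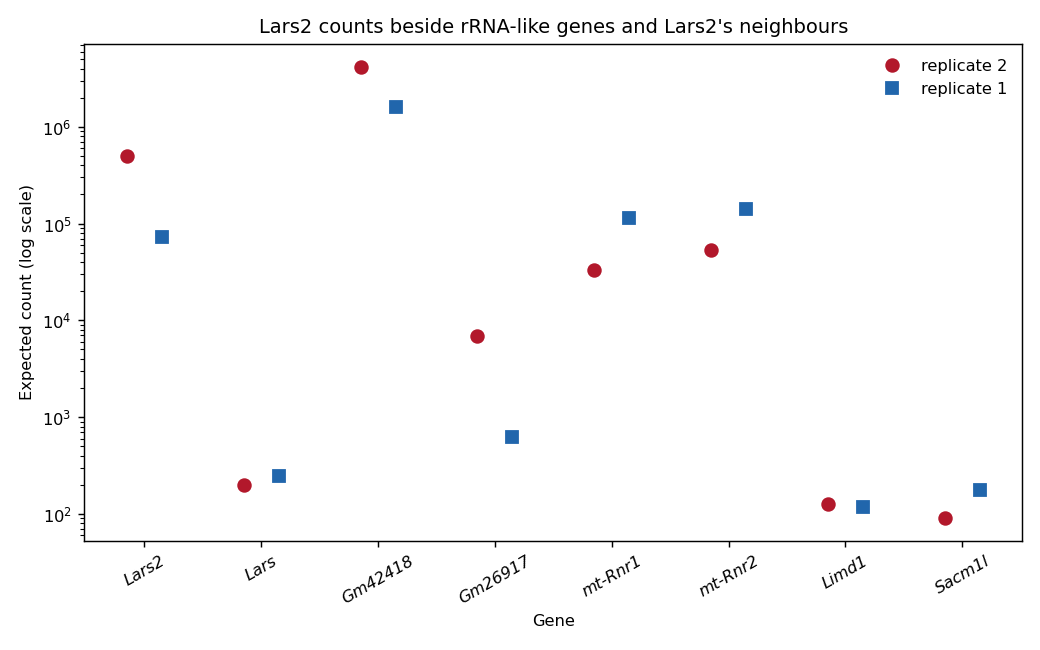
Expected counts (log axis) of Lars2, its cytosolic partner Lars, the transcripts Gm42418 and Gm26917, the mitochondrial ribosomal RNAs and the neighbours of Lars2, in replicate 2 (circles) and replicate 1 (squares). Lars2, at 502775 counts in replicate 2 against 72002 counts in replicate 1, lies orders of magnitude above Lars, at 197 counts in replicate 2 and 244 in replicate 1.

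The Lars2 transcript was compared with all GENCODE M21 transcripts by BLAST. In that annotation it is 3894 bases long with 21 exons, and the 3′ untranslated region starts at base 2909. Transcripts of 5 other genes matched it at an E value of 1e-06 or less, all within that untranslated region. The closest was Gm15564, with 98.6% identity over 72 bases (bases 3278 to 3349), and it had 0 counts in both libraries. AA474408 matched over 196 bases at 80.1% identity and had 0 counts in replicate 2 and 2 in replicate 1. The other matches were shorter than 100 bases, and of these genes Phka1 had 68 counts in replicate 2 and 102 in replicate 1, Mfsd2b 13 in replicate 2 and 45 in replicate 1, and Ifitm10 2 in each. Gm42418, Gm26917 and the mitochondrial ribosomal RNAs did not match it at that E value. Only annotated transcripts were searched, so ribosomal sequence outside them was not compared, and shorter shared stretches could be missed. The files give counts per gene and not their position along the transcript, so where on Lars2 the reads lie is not known from them.

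Genes that work beside the synthetases were read from lists chosen with earlier results of these libraries known. The scaffold proteins of the synthetase complex were detected at 1 TPM in both libraries in 3 of 3 cases. Aimp2 was called higher, with 61 counts in replicate 2 and 29 in replicate 1 (8.78 TPM in replicate 2 and 4.68 TPM in replicate 1, log2 ratio 1.54). Eef1e1 was called lower, with 8 counts in replicate 2 and 30 counts in replicate 1 (1.21 TPM in replicate 2 and 3.95 TPM in replicate 1, log2 ratio -1.36), and Aimp1 had 6.03 TPM in replicate 2 and 7.40 TPM in replicate 1 and was not called. Of the 3 scaffold genes, 1 was thus called in each direction, against 8.31% of all genes called higher and 4% called lower. These proteins are known to hold the complex together, and their messages did not move in 1 direction. With the GC and length trend removed, Aimp2 stood at 1.35 and was still called, and Eef1e1 at -1.21 was not (adjusted p = 0.0912, exact binomial test).

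The mitochondrial amidotransferase converts glutamyl-tRNA made by Ears2 into glutaminyl-tRNA, the route used in place of a mitochondrial glutamine enzyme. Ears2 had 1.64 TPM in replicate 2 and 1.15 TPM in replicate 1. Of the 3 subunit genes, Gatc was called lower, with 34 counts in replicate 2 and 132 in replicate 1 (2.75 TPM in replicate 2 and 9.26 TPM in replicate 1, log2 ratio -1.46). Over all genes tested, 4% were called lower. Gatb had 2.07 TPM in replicate 2 and 0.71 TPM in replicate 1 and Qrsl1 0.55 TPM in replicate 2 and 1.55 TPM in replicate 1, and neither was called. All 3 levels lay in the range of the mitochondrial synthetases or just above it.

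Elongation factors that carry charged tRNA to the ribosome were far more abundant than the synthetases in the cytosol. Eef1a1 had 1306 TPM in replicate 2 and 1193 TPM in replicate 1, and Eef1b2, a subunit of its exchange factor, had 166 TPM in replicate 2 and 179 TPM in replicate 1. Of the 6 genes of this list 1 was called higher, where 8.31% of all genes tested were. It was the mitochondrial exchange factor Tsfm, with 46 counts in replicate 2 and 8 in replicate 1 (8.36 TPM in replicate 2 and 1.26 TPM in replicate 1, log2 ratio 2.93).

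Among the 13 genes of tRNA end processing and splicing, 1 was called in each direction, against 8.31% of all genes called higher and 4% called lower. With library totals the split was 1 higher and 4 lower, with Trnt1 at -1.37, Trmt10c at -1.48 and Rpp30 at -1.20 besides Ssb at -1.56. The La protein gene Ssb, whose product binds the ends of new tRNA precursors, was the most abundant and was called lower, with 196 counts in replicate 2 and 558 in replicate 1 (18.87 TPM in replicate 2 and 42.74 TPM in replicate 1, log2 ratio -1.02). Tsen34, a subunit of the tRNA splicing endonuclease, was called higher with 63 counts in replicate 2 and 19 counts in replicate 1 (7.13 TPM in replicate 2 and 2.66 TPM in replicate 1, log2 ratio 2.19). Hsd17b10, a subunit of mitochondrial RNase P, had 17.01 TPM in replicate 2 and 19.05 TPM in replicate 1 and was not called. Among editing and synthetase-like proteins, Aarsd1, which clears mischarged alanyl-tRNA, had 4.18 TPM in replicate 2 and 3.34 TPM in replicate 1 and Dtd1, which removes D-amino acids from tRNA, 2.58 TPM in replicate 2 and 4.02 TPM in replicate 1. In that list 7 of 8 genes were tested, and Ptrhd1 alone was called, lower, where 4% of all genes were. It had 12 counts in replicate 2 and 39 counts in replicate 1 (log2 ratio -1.18). With the trend removed, Ssb stood at -0.69 and Ptrhd1 at -1.10 (adjusted p = 0.0539, exact binomial test), and neither was called.

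The amino acid response, in which ATF4 is known to raise synthetase genes, was read from a list of 19 genes, of which 18 were tested. Its members had medians of 6.16 TPM in replicate 2 against 6.17 TPM in replicate 1. Nupr1, a stress protein of the exocrine pancreas, led it with 1909 TPM in replicate 2 and 3877 TPM in replicate 1, and its log2 ratio of -0.85 was under the size threshold; with library totals it was -1.39 and with the trend removed -1.24, and it was then called lower. Atf4 itself had 48.00 TPM in replicate 2 and 60.27 TPM in replicate 1. Called higher in replicate 2 were Chac1 with 94 counts in replicate 2 and 56 counts in replicate 1 (log2 ratio 1.22), Cebpb with 25 counts in replicate 2 and 6 counts in replicate 1 (2.45) and Ddit4 with 74 counts in replicate 2 and 51 counts in replicate 1 (1.02), and none was called lower, which is 3 of 18 against 8.31% of all genes called higher. With library totals 1 was called higher, Cebpb at 1.92, and 2 were called lower, Nupr1 and Stc2 at -1.41. Their main transcripts held 57.4% GC for Chac1, 67.2% for Cebpb and 57.9% for Ddit4, and with the GC and length trend removed the log2 ratios were 0.69, 0.71 and 0.43 in that order, under the size threshold. The ATF4 core was found in promoter windows of 5 of the 18 matched genes of this list, Atf3, Chac1, Vldlr, Nupr1 and Slc7a11. Over all genes, 0.895% of windows held it. The list was chosen as genes of this response, so the count is a description.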

How the data were processed

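Polyadenylated RNA of 1 mouse pancreas was read in 2 technical libraries. Per the deposited README files, values rest on build mm10 and GENCODE M4. The sources used here name neither the aligner nor the quantifier, nor whether counting used strand. An expected count, a TPM, an FPKM, a posterior mean count and, for transcripts, the percent of each isoform were deposited, per the file headers. The deposited posterior SD and posterior mean TPM were entered as a signal. FPKM and posterior means served only as alternatives. The members and the related lists were chosen with earlier results of these data known.

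GENCODE M21 (GRCm38) gave the symbols and coordinates (42462 of 43346 IDs matched); 97 spike-in and 26248 numbered rows held 0 counts and were left out. Expected counts were rounded, though 70 of the 72 member counts were already whole within 0.005. Totals were scaled by TMM (edgeR 4.0.16, R 4.3.3). With 1 library on each side the quasi-likelihood fit has no residual degrees of freedom, so genes with a mean of 10 counts or more got a two-sided exact binomial test with Benjamini-Hochberg adjustment. Log2 ratios have 0.5 added to both counts, and intervals are exact Clopper-Pearson intervals at 95%. The test was tried on simulated data. Class and pair comparisons of TPM carry no test.

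Genes named one by one are the 4 highest and 3 lowest of each class by mean TPM, the 3 largest and 3 smallest log2 ratios of each class, every called member, Lars2, Farsa, Farsb, Gars, Kars, Qars, Eprs, the extreme pairs, and the 2 most abundant and every called gene of each related list. Limd1, Sacm1l, mt-Rnr2, Stc2, Trnt1, Trmt10c, Rpp30, Vars2, the genes matching Lars2 and the overlapping genes are named besides these, after their values were seen. GC content was found for 98.9% of the tested genes. Promoter windows are from RefSeq (GRCm38.p6). A further promoter match is not reported here. Python 3.11.15, scipy 1.17.1, BLAST+ 2.17.0 and DESeq2 1.42.0 (size factors as an alternative) were used.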

Additional observations from a re-analysis of the deposited data

How the results depend on the processing

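The cytosolic median was the higher under every alternative run, at a ratio of class medians from 4.82 (deposited posterior mean TPM) to 6.73. Of the 16 pairs, 15 or 16 stood above 1, and 15 of 17 where Lars2 is kept in the mitochondrial class. Not every alternative could change this. FPKM and the rescaled TPM given below multiply every gene of a library by 1 factor, so ratios within a library were fixed. Gars and Kars are in no pair, so leaving them out could not change the pairs. The cytosolic median of 10.02 TPM became 8.50 with FPKM, 10.43 with posterior mean TPM, 16.42 when TPM was rescaled without the mitochondrial genome, Gm42418, Gm26917 and Lars2, 9.58 without Gars and Kars, and 9.89 with 1 effective length per gene in both libraries, an alternative chosen after seeing the data. The mitochondrial median of 1.61 TPM became 1.36, 2.18 and 2.63 under the first 3 of these.

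Calls depended on the setting. The 1 cytosolic call was 0 with library totals, with the GC and length trend removed and with an assumed dispersion of 0.1. The 3 mitochondrial calls were 0 with the trend removed and with a dispersion of 0.1. With a minimum mean count of 50, Aars2, Fars2 and Cars2 were not tested, so the 0 calls there were fixed by the filter. The 1533 calls over all genes were 2945 with library totals, 649 with a mean count of 50, 936 with the trend removed and 45 with a dispersion of 0.1. With library totals the median log2 ratio turned to -0.43 for cytosolic and -0.27 for mitochondrial genes, and single genes turned to -0.39 (Cars), -0.48 (Dars), -0.28 (Farsb), -0.47 (Kars), -0.36 (Lars), -0.26 (Qars), -0.05 (Wars), -0.28 (Ears2), -0.46 (Iars2), -0.18 (Nars2), -0.37 (Tars2), -0.17 (Vars2), -0.46 (Wars2) and -0.25 (Yars2), by construction of the common shift. Qars averaged 23.41 TPM without the transcript that GENCODE M21 gives to Qrich1. Mars2, at -1.11 with library totals, was called lower. With the trend removed, Nars turned to 0.08, Tars to 0.11, Ears2 to -0.34, Tars2 to -0.09 and Vars2 to -0.19; the cause was not tested. The same main isoform was found in 20 of 26 genes by counts and 15 by TPM. The low counts of the mitochondrial genes, 4 to 129 in replicate 2 and 11 to 171 in replicate 1, limit what differences can be detected.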
